A study of Mus musculus with 3 samples.

Results

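Iron handling was described through 10 genes out of the 16742 genes listed in any of the libraries. They were chosen by name for their roles: Tfrc, Steap3 and Slc11a2 for uptake, Fth1, Ftl1 and Ncoa4 for storage and its release, Slc40a1 for export, Hmox1 for heme breakdown, Slc25a37 for mitochondrial import and Ireb2 for sensing. All 10 were listed in all 3 libraries. Control RNA came from the lin- marrow of wild-type C57BL/6 mice, that is, from cells left once those with mature lineage markers are taken away. TR1 and TR9 RNA came from GFP+ marrow of C57BL/6 mice carrying leukemia that expresses TBLR1-RARα (TR), a fusion gene of acute promyelocytic leukemia. A retroviral vector carried TR together with GFP into lin- cells, and the leukemias were taken at the third generation of mice, after serial transplantation. TR1 and TR9 are each named for a single leukemic mouse, so each line stands for 1 primary leukemia. Each library pooled 3 mice, whose age is labelled as 6 to 8 weeks, and there was 1 library per condition. Control cells were obtained by lineage depletion and TR cells by their GFP, so the method of isolation and the genotype cannot be told apart. The control cells came from healthy mice, without vector or serial transplantation, so these differences cannot be told apart from the genotype either.

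Mammalian cells take up iron as transferrin bound to the transferrin receptor, reduce it in the endosome and pass it to the cytosol. Iron that is not used is stored in ferritin, a shell of heavy and light chains, or leaves the cell through ferroportin. When iron is scarce, the iron regulatory proteins bind a stem-loop of RNA, the iron-responsive element, which blocks translation when it lies in the 5′ untranslated region (UTR) and protects the transcript from decay when it lies in the 3′ UTR. In the bone marrow, erythroblasts take up most of the iron and macrophages return it from old red cells.

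The stem-loop was searched by its letters, an unpaired C, 5 stem bases, the loop CAGTGN of 6 bases and 5 bases that pair with the stem, G-U pairs allowed, on the sense strand of reference transcripts (GENCODE M21, GRCm38). It was found in a UTR of 4 of the 10 genes and of 117 of 15320 genes searched (0.764%). The sequences are printed to show the element in the members that hold these letters, with the loop of 6 bases in capitals and, in lower case, the C and stem bases and 5 further bases at each end that were not required to pair. They are read 5′ to 3′ along the transcript, from the plus strand for Fth1 and Tfrc and from the minus strand for Ftl1 and Slc40a1.
Fth1, 5′ UTR, chr19:9982733-9982759: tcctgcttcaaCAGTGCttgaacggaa
Ftl1, 5′ UTR, chr7:45459780-45459806: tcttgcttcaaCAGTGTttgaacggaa
Slc40a1, 5′ UTR, chr1:45925466-45925492: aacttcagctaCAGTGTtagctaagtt
Tfrc, 3′ UTR, chr16:32631220-32631246: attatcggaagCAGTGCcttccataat
Tfrc, 3′ UTR, chr16:32631599-32631625: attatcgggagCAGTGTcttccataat
Tfrc, 3′ UTR, chr16:32631664-32631690: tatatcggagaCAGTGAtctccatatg
Tfrc, 3′ UTR, chr16:32631711-32631737: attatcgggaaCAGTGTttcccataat
The 5′ UTR of Fth1, Ftl1 and Slc40a1 held 1 copy each, and the 3′ UTR of Tfrc held 4. Stem-loops with other letters or fewer pairs were not counted. Over all genes searched, 20 (0.131%) had the letters in the 5′ UTR and 97 (0.633%) in the 3′ UTR. A match is a match of letters in a reference transcript and was not measured in these cells, and a gene without one, such as Slc11a2, whose RNA is also a known target of the iron regulatory proteins, lacks only these exact letters in the transcripts searched.

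In TR1, 6 of the 10 genes were lower than in control, 1 was higher and 3 were not called. A gene was called where the reads of the libraries differed at a false discovery rate of at most 0.001 in a conditional exact Poisson test and the FPKM differed by an absolute log2 ratio of at least 1. FPKM is the deposited level per transcript length and library total. By the same rule 13.0% of the 16282 genes tested in TR1 were lower and 8.09% higher. In TR9, 5 of the 10 were lower and 1 was higher, against 10.8% lower and 9.37% higher of 16303 genes. These shares include genes with few reads. Where only genes with at least 10 counts were tested, 17.4% were lower and 10.7% higher in TR1. In TR9 these were 14.3% and 12.4%. Tfrc, Steap3, Slc11a2, Fth1 and Hmox1 were lower in both TR libraries and Ncoa4 was higher in both, where 8.39% of all 16742 listed genes were lower and 5.67% higher in both. Both comparisons use the same control library, so they are not independent. The median log2 ratio of the 10 genes was -1.43 in TR1 and -0.69 in TR9, beside -0.29 and -0.12 over all genes tested. With 1 library per condition, a call is about the reads of a pair of libraries and not about the conditions, and nothing here was checked in replicates. Expected counts summed to between 5129662 and 5571409 per library, and the 95% exact (Clopper-Pearson) intervals given below cover counting error only.

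**Figure D1:**
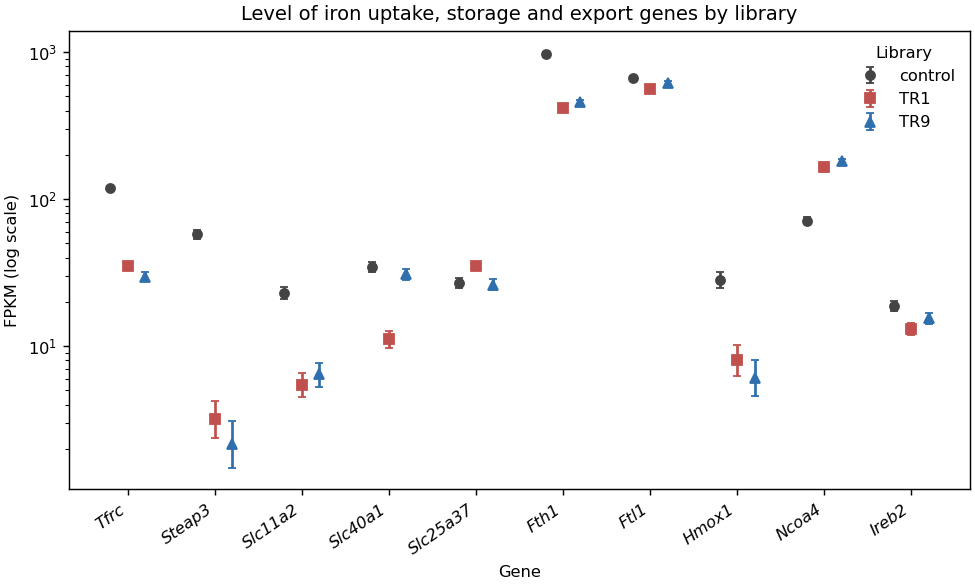
FPKM of the 10 iron genes in the control, TR1 and TR9 libraries on a logarithmic axis, 1 point per library with its 95% exact counting interval. Fth1 and Ftl1 are the most abundant in every library, and Steap3 falls from 57.65 FPKM in control to 3.22 in TR1 and 2.17 in TR9.

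Markers of several cell types differed between the libraries as well. For comparison, 8.39% of all listed genes were lower and 5.67% higher in both TR libraries. Of 18 listed erythroid genes, 18 were lower in both TR libraries, and their summed level was 2896 FPKM in control against 11.2 and 15.6 in TR1 and TR9. Of the defining erythroid genes, Klf1 had 918 expected counts in control against 3 and 5 in TR1 and TR9. Epor had 316, 0 and 1 counts, and Slc4a1 259, 0 and 1. These 3 genes were at or near 0 in both TR libraries. All 8 megakaryocyte genes were lower in both TR libraries as well, with summed FPKM of 949.8, 3.3 and 2.3 in control, TR1 and TR9 and the defining gene Pf4 at 0 counts in both TR libraries. Of 14 macrophage genes, 11 were lower and 1 was higher in both. Vcam1, the higher one, had 25.11, 164.41 and 291.13 FPKM in control, TR1 and TR9 out of macrophage sums of 113.6, 181.3 and 305.3. The defining macrophage genes were mixed. C1qa had 104, 4 and 2 counts and Cd163 198.56, 22.53 and 89.87, and both were lower in both TR libraries. Adgre1 had 46, 218 and 71 counts, called higher in TR1 and not called in TR9. Of 7 promyelocyte genes, 6 were higher in both TR libraries. The sum of the 7 was 4275 FPKM in control against 21481.5 and 23976 in TR1 and TR9. Mpo, a defining gene, was higher in TR1, with a log2 ratio of 1.75, and not called in TR9, with 0.64. Its FPKM were 2255, 7585 and 3514 in control, TR1 and TR9, and those of Elane were 866, 9103 and 13178. Of 12 proliferation genes, 7 were lower in both, with sums of 1615, 752.6 and 797.8 FPKM in control, TR1 and TR9. Taken singly, 7 were lower in TR1 and 8 in TR9, against 4 and 5 with TMM and 1 and 0 with edgeR's exact test at an assumed variation of 0.2. Their part in the differences of the iron genes was not tested. In bulk RNA, fewer cells of a type and less RNA of a gene per cell cannot be told apart.

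All 3 uptake genes were lower in both TR libraries. Steap3, the endosomal reductase that converts ferric to ferrous iron, had 879 expected counts in control against 50 and 31 in TR1 and TR9, which is 57.65, 3.22 and 2.17 FPKM. Control was far above both TR libraries. The FPKM of Steap3 was 17.9-fold lower in TR1, a log2 ratio of -4.16 (95% interval -4.60 to -3.75), and 26.6-fold lower in TR9, with -4.73 (-5.30 to -4.22). It was the lowest ratio of the 10 genes in both comparisons. Among the genes listed in a library, the FPKM of Steap3 was at percentile 90.6 in control against 36.9 and 31.3 in TR1 and TR9. It lies on the minus strand of chromosome 1 from 120190757 to 120272705 (GRCm38).

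Tfrc, the transferrin receptor, is the gene with 4 matches to the stem-loop letters in its 3′ UTR. It had 3251 counts in control against 980 and 757 in TR1 and TR9, or 119.31, 35.33 and 29.69 FPKM. TR1 was 3.38-fold below control, a log2 ratio of -1.76 (95% interval -1.86 to -1.65), and TR9 was 4.02-fold below it, with -2.01 (-2.12 to -1.89). Tfrc lies on the plus strand of chromosome 16 from 32608920 to 32632794. Slc11a2 encodes DMT1, the transporter that moves ferrous iron out of the endosome. Its expected counts were 471.63 in control against 107.69 and 118.36 in TR1 and TR9, and its FPKM were 22.95, 5.46 and 6.42. Both TR libraries were again well below control. For Slc11a2 the log2 ratio was -2.07 (-2.38 to -1.76) in TR1 and -1.84 (-2.15 to -1.55) in TR9. Slc11a2 was the only one of the 10 genes whose counts were not whole, so some of its reads had been divided between genes, and its 2 annotated transcripts gave an average length of 3719, 3506 and 3570 bases in control, TR1 and TR9. Slc11a2 lies on the minus strand of chromosome 15 from 100387898 to 100425072. The calls of Steap3, Tfrc and Slc11a2 remained with edgeR's exact test at an assumed coefficient of variation of 0.2 between libraries.

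Steap3 fell further than Tfrc. The level of Steap3 over that of Tfrc, both in FPKM of the same library and so free of the scaling between libraries, was 0.483 in control (95% interval 0.448 to 0.521) and 0.0911 in TR1 (0.0672 to 0.121), and in TR9 it was 0.0731 (0.0493 to 0.105). The interval of control lies above those of TR1 and TR9.

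Among relatives and partners of the uptake genes the directions were mixed. Tfr2, the second transferrin receptor and an erythroid and liver gene, had 782, 8 and 15 counts in control, TR1 and TR9, lower in both TR libraries with log2 ratios of -6.63 and -5.61. The Tfrc level was 2.46 times that of Tfr2 in control, 72.1 times in TR1 and 29.99 times in TR9. Trf, transferrin, was higher in both, with 346, 1209 and 1833 counts and log2 ratios of 1.78 and 2.50. The furthest above control was Lcn2, a secreted neutrophil granule protein that binds iron-carrying siderophores, with 29, 5044 and 1109 counts and log2 ratios of 7.42 and 5.35. Slc39a14, a transporter of iron that is not bound to transferrin, was lower in both, with ratios of -1.70 and -1.61, and its relative Slc39a8 was not called, with -0.71 and -0.96. Of the other ferrireductases, Steap4 had 2, 68 and 4 counts, and Steap2 had 5.35, 4.53 and 1.3. Slc11a1, the phagosomal relative of Slc11a2, had 19.84, 4.14 and 14.19 counts and was not called. In the list of 17 listed uptake genes, members included, 3 were higher and 6 lower in both TR libraries. The shares over all listed genes were 5.67% and 8.39%.

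The transcript of the ferritin heavy chain differed from control more than that of the light chain. These are RNA levels, and neither ferritin protein nor stored iron was measured in these libraries. Fth1, the heavy chain that oxidizes iron, had 4916 counts in control against 2131 and 2156 in TR1 and TR9, or 972.56, 414.18 and 455.81 FPKM. The TR libraries lay close together and below control. TR1 was 2.35-fold below control, at a log2 ratio of -1.23 (95% interval -1.31 to -1.16), and TR9 was 2.13-fold below it, with -1.09 (-1.17 to -1.02). These calls were near the threshold and depended on the scaling. With TMM, which sets the bulk of genes level and raises ratios against control by 0.25 in TR1 and 0.11 in TR9, the log2 ratio of Fth1 was -0.98 and -0.99, and it was not called in either. Nor was Fth1 called by edgeR's exact test when a variation of 0.2 was assumed. Ftl1, the light chain, had 3520, 3019 and 3042 counts, or 664.13, 559.59 and 613.33 FPKM. With log2 ratios of -0.25 (-0.32 to -0.18) in TR1, which TMM moved to 0.003, and -0.12 in TR9, it was called in neither. Fth1 lies on the plus strand of chromosome 19 from 9980598 to 9985098 and Ftl1 on the minus strand of chromosome 7 from 45457944 to 45459884. RefSeq names ferritin pseudogenes, such as Fth-ps2, Ftl1-ps1 and Ftl2-ps, that none of the libraries lists, so reads of such copies cannot be told apart from those of Fth1 and Ftl1 here.

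The order of the ferritin chain transcripts was reversed between control and the TR libraries. The Fth1 level was 1.46 times that of Ftl1 in control (95% interval 1.40 to 1.53), 0.740 times in TR1 (0.700 to 0.783) and 0.743 times in TR9 (0.703 to 0.786). Both TR libraries lay below 1 and control above 1, with no overlap of the intervals. Because both transcripts were counted in the same library, this ratio does not move with TMM or another scaling. Both transcripts hold the stem-loop letters in the 5′ UTR, printed above, and both are known targets of the iron regulatory proteins.

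Ncoa4, the receptor that carries ferritin to the lysosome for breakdown, was the only one of the 10 genes called higher than control in either TR library. Its counts were 1369 in control against 3236 and 3240 in TR1 and TR9, or 71.24, 165.31 and 180.29 FPKM. Both TR libraries lay above control and close to each other. The FPKM was 2.32-fold higher in TR1, a log2 ratio of 1.21 (95% interval 1.12 to 1.31), and 2.53-fold higher in TR9, with 1.34 (1.25 to 1.43). With a variation of 0.2 assumed, edgeR's exact test called it in neither, and after FPKM were rescaled to one sum, a choice made after seeing the data, it was at 0.99 in TR1 and not called. Set against the heavy chain within each library, the Ncoa4 level was 0.0733 of the Fth1 level in control against 0.399 and 0.396 in TR1 and TR9. Ncoa4 lies on the plus strand of chromosome 14 from 32159865 to 32179855. The iron chaperones Pcbp1 and Pcbp2, which deliver iron to ferritin, were not called, with log2 ratios between -0.37 and 0.22. Tax1bp1, an autophagy receptor that acts with Ncoa4, had 1714, 2119 and 3146 counts and ratios of 0.28 and 0.97, and was not called.

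**Figure D2:**
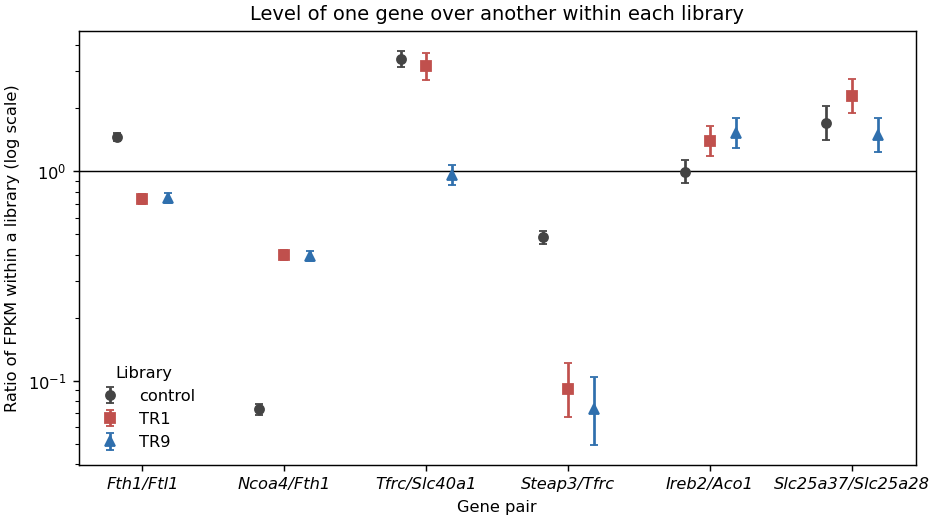
Ratio of the FPKM of paired iron genes within the control, TR1 and TR9 libraries on a logarithmic axis, with 95% exact counting intervals. Fth1 over Ftl1 passes from 1.46 in control to 0.740 in TR1 and 0.743 in TR9, and Tfrc over Slc40a1 is 3.45, 3.17 and 0.962.

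The export gene differed between the TR libraries. Slc40a1 encodes ferroportin, the known exporter of iron from cells. Its counts were 646 in control against 212 and 539 in TR1 and TR9, or 34.63, 11.16 and 30.87 FPKM. TR1 stood below both others. The FPKM of TR1 was 3.10-fold below that of control, with a log2 ratio of -1.63 (95% interval -1.86 to -1.41). TR9 was not called against control, with -0.17 (-0.33 to 0.001). Compared directly, TR9 was 2.77-fold higher than TR1, a log2 ratio of 1.47 (1.24 to 1.70). Slc40a1 was the only one of the 10 genes called between the TR libraries, where 4.34% of 15706 genes were higher in TR9 and 2.31% were lower. The other 9 had log2 ratios between -0.57 and 0.23. Neither the call in TR1 nor that between the TR libraries remained with edgeR's exact test and an assumed variation of 0.2. Slc40a1 lies on the minus strand of chromosome 1 from 45908068 to 45926523.

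Set against Tfrc, TR9 rather than TR1 stood apart. The other uptake genes were not set against Slc40a1. Tfrc over Slc40a1 in FPKM was 3.45 in control (95% interval 3.17 to 3.76), 3.17 in TR1 (2.73 to 3.69) and 0.962 in TR9 (0.860 to 1.08). TR9 stood below control and TR1, whose intervals overlap.

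Of the 6 export genes, 4 were called higher in TR9 than in TR1, Slc40a1 among them, and 0 were called lower. With edgeR's exact test at 0.2, 3 were called higher. The shares of all genes called higher were 4.34% by the main rule and 1.2% by edgeR's test. Heph, a ferroxidase that works beside ferroportin, had 6, 227 and 966 counts and was higher in both TR libraries, with log2 ratios of 5.25 and 7.45, and higher in TR9 than in TR1 by 2.20. Cp, ceruloplasmin, the other ferroxidase, had 31, 14 and 208 counts. Against control it was higher in TR9, with 3.03, and not called in TR1, with -1.17, and it was higher in TR9 than in TR1 by a log2 ratio of 4.20. Abcg2, a transporter of heme and porphyrins, had 355, 4 and 73 counts and was lower in both TR libraries, with -6.48 and -2.19. The heme exporter Flvcr1 was not called, with ratios of -0.53 and -0.47. Among macrophage genes, Cd163 had 198.56, 22.53 and 89.87 counts and differed by a log2 ratio of 2.11 between TR9 and TR1, while Adgre1 had 46, 218 and 71 counts and differed by -1.50. Their part in the difference of Slc40a1 was not tested.

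**Figure D3:**
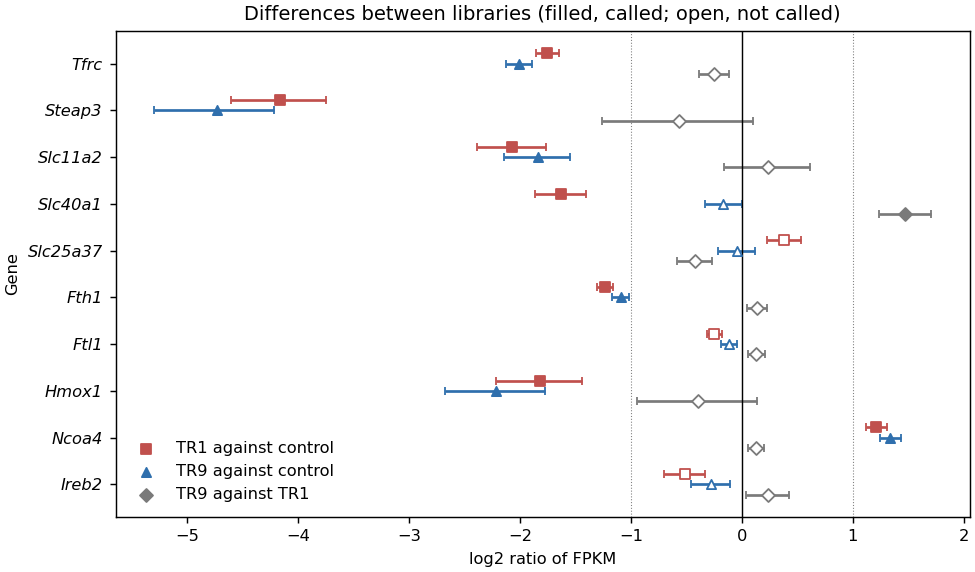
Log2 ratios of FPKM for the 10 iron genes in TR1 against control, TR9 against control and TR9 against TR1, with 95% exact counting intervals and lines at the thresholds of -1 and 1. Slc40a1 is at -1.63 in TR1, -0.17 in TR9 and 1.47 between the TR libraries.

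Hmox1 and the biliverdin reductase genes were lower in both TR libraries. Hmox1, heme oxygenase 1, which frees iron from heme, had 253 counts in control against 73 and 51 in TR1 and TR9, or 28.38, 8.04 and 6.11 FPKM. TR1 was 3.53-fold below control, a log2 ratio of -1.82 (95% interval -2.22 to -1.44), and TR9 4.64-fold, with -2.22 (-2.68 to -1.78). These calls remained with edgeR's exact test at 0.2. Hmox2, the constitutive enzyme, had log2 ratios of -0.07 and -0.25 and was not called. The Hmox1 level was 0.759 of the Hmox2 level in control against 0.226 and 0.194 in TR1 and TR9. Both biliverdin reductase genes were called lower in TR1 and in TR9 by the main rule. Of the 3 heme breakdown genes lower in both, edgeR's exact test at 0.2 kept 2 in each comparison, Hmox1 among them. Blvra had 157, 43 and 40 counts, with log2 ratios of -1.89 and -1.88. Blvrb, abundant in erythroid cells, had 1074, 39 and 136 counts, with -4.81 and -2.89. Slc48a1, which carries heme out of the lysosome, had 673, 1276 and 2072 counts and was higher in TR9 by 1.72. Hmox1 lies on the plus strand of chromosome 8 from 75093621 to 75100589. It is also a known target of NRF2 and BACH1. Of 12 other genes of that pathway, targets and regulators, 2 were lower in both TR libraries and none was higher in both. The shares over all listed genes were 8.39% lower and 5.67% higher. The 2 genes lower in both were Nqo1 with log2 ratios of -4.16 and -2.45 and Gclc with -1.32 and -1.13. Neither Nfe2l2, the gene of NRF2, with -0.76 and -0.90, nor Bach1, with 0.24 and 0.12, was called.

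Slc25a37, mitoferrin 1, carries iron into mitochondria and is known for supplying heme synthesis in erythroblasts. Its counts were 622 in control against 823 and 564 in TR1 and TR9, or 27.02, 35.12 and 26.18 FPKM. It was called in no comparison, and its log2 ratio was 0.38 (0.23 to 0.53) for TR1 and -0.05 (-0.21 to 0.12) for TR9, where it was 0.06 with TMM. These values stood beside summed erythroid markers of 2896, 11.2 and 15.6 FPKM. The paralog Slc25a28, mitoferrin 2, had 136, 134 and 141 counts and was not called either. Slc25a37 lies on the minus strand of chromosome 14 from 69241848 to 69285112, where the annotation also places Gm27222, Gm31748 and Gm31896, genes that the libraries do not list. Of 19 genes of mitochondrial iron use and iron-sulfur cluster assembly, 6 were lower in both TR libraries and 0 were higher. The shares over all listed genes were 8.39% lower and 5.67% higher. In TR1, 10 of the 19 were lower, and 7 with TMM, beside 13.0% and 9.77% of all genes tested. At an assumed variation of 0.2, edgeR's exact test called 3 of the 19 lower in TR1 and 1 in TR9. The shares of all genes called lower by that test were 6.09% in TR1 and 5.09% in TR9. Glrx5, an iron-sulfur assembly protein, had 525, 164 and 170 counts and log2 ratios of -1.70 and -1.53. Iba57 had ratios of -2.58 and -2.52, and Bola3, another protein of that pathway, had -1.87 and -1.23.

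Ireb2, iron regulatory protein 2, a sensor that binds the stem-loops, was called in no comparison. Its counts were 604 in control against 430 and 465 in TR1 and TR9, or 18.76, 13.12 and 15.43 FPKM, both TR libraries somewhat below control. On the log2 scale TR1 differed from control by -0.52 (95% interval -0.70 to -0.34) and TR9 by -0.28 (-0.46 to -0.11). Aco1, iron regulatory protein 1, which is also the cytosolic aconitase, had 450.06, 227.83 and 227.28 counts. It was lower in TR1, with -1.01, just past the threshold, and not called in TR9, with -0.89. In FPKM, Ireb2 was 0.996 times the level of Aco1 in control (0.881 to 1.13), 1.40 times in TR1 (1.19 to 1.65) and 1.52 times in TR9. Fbxl5, the iron-sensing ubiquitin ligase subunit that removes Ireb2 protein, had 178, 721 and 307 counts. It was higher in TR1, with a log2 ratio of 2.02, and lower in TR9 than in TR1, with -1.12. Ireb2 lies on the plus strand of chromosome 9 from 54863789 to 54912530. Hamp, the hormone hepcidin that degrades ferroportin, had 0, 1 and 3 counts, at or under the floor of 3 counts. Bmpr1a, a receptor of the pathway that controls hepcidin, had 8, 194 and 254 counts, with log2 ratios of 4.59 and 5.10, and Epas1, a transcription factor of the response to hypoxia, had 31.23, 4.17 and 5.01, with -2.91 and -2.54.

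By FPKM within each library, which is per transcript length, the order of the 10 genes also differed. In control it ran Fth1, Ftl1, Tfrc, Ncoa4 and Steap3, followed by Slc40a1, Hmox1, Slc25a37, Slc11a2 and Ireb2. The exact counting intervals of Slc40a1 and Hmox1 overlapped, as did those of the next neighbors down to Slc11a2. In TR1 the order began with Ftl1, Fth1 and Ncoa4. Tfrc and Slc25a37 came next with overlapping intervals, then Ireb2, Slc40a1, Hmox1 and Slc11a2, each overlapping its neighbor, and Steap3 was last. In TR9 the same 3 genes led, Slc40a1, Tfrc and Slc25a37 followed with overlapping intervals, then Ireb2, and then Slc11a2 and Hmox1, which overlapped, with Steap3 again last. Ncoa4 stood above Tfrc in both TR libraries, and Tfrc above Ncoa4 in control.

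For the 6 genes called in the same direction in both TR libraries, the genes with the most like pair of log2 ratios were sought among 7782 genes of at least 10 FPKM in a library, by distance in the plane of both ratios. Nearest to Tfrc was Nat10, at a distance of 0.0221. For Steap3 this was Lfng (0.139). For Slc11a2 these were Tal1 (0.0564) and Mcpt8 (0.0674), and for Hmox1 Acaa2 (0.0737) and Txnrd2 (0.0807). Fth1 was nearest to Khsrp (0.00900) and Ncoa4 to Tmem63a (0.0159). Both axes share the control library, so the likeness rests on 3 libraries.

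Over the 7 lists of iron and NRF2 or BACH1 genes without the 10 members, 69 genes were listed. In TR1, 7 of these were higher and 22 lower, with a median log2 ratio of -0.76. In TR9, 8 were higher and 15 lower, with a median of -0.47. Over all genes tested, 8.09% were higher and 13.0% lower in TR1, and 9.37% and 10.8% in TR9. The medians over all genes were -0.29 and -0.12. Between the TR libraries, 9 of the 69 were higher in TR9 and 3 lower, beside 4.34% and 2.31% of all genes tested. Against control, both directions were present in the uptake, export and sensing lists, and in TR9 also in the heme breakdown and NRF2 or BACH1 lists. With FPKM as deposited, the called genes of mitochondrial iron use were all lower in both comparisons with control. The same held with TMM, upper quartile and median of ratios scaling and after rescaling to one sum. At an assumed variation of 0.2, edgeR's exact test called 3 genes of that list lower and 0 higher in TR1. In TR9 it called 1 lower and 0 higher. Over all genes it called 6.09% lower in TR1 and 5.09% in TR9. Calls this few cannot show a common direction.

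**Figure D4:**
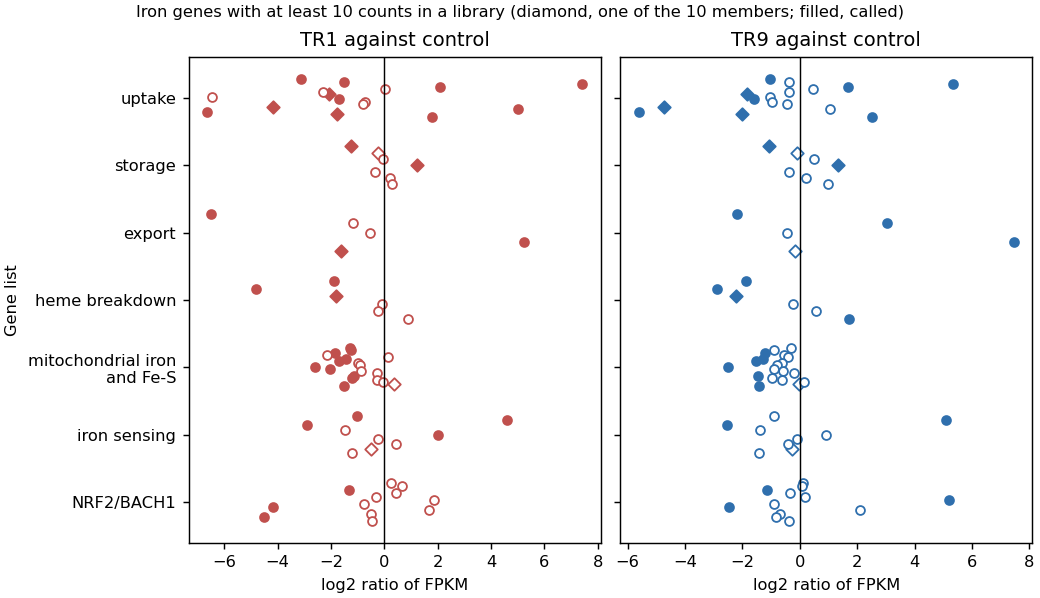
Log2 ratios of FPKM against control for the genes of the iron lists, 1 point per gene, in TR1 and TR9, for genes with at least 10 counts in a library. Diamonds are members, filled symbols are called genes and the line marks 0. In both panels, called genes lie on both sides of 0 in the uptake, storage, export and sensing lists. In the heme breakdown and NRF2 or BACH1 lists this holds in TR9 alone. Called genes of mitochondrial iron use lie only below 0.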

How the data were processed

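RNA-seq of 3 mouse libraries (control, TR1 and TR9, 1 per condition) was used, grouped by the sample labels. The submitters' processing notes name BWA, Bowtie, RSEM and the build mm9. Versions are not given in the sources used here. The authors deposited for each gene an expected count, which RSEM estimates without normalization, and the FPKM, scaled for gene length and library total. Totals were 5488778, 5571409 and 5129662 expected counts. Unlisted genes were taken as 0.

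Gene IDs were named from RefSeq (GRCm38.p6; 16698 of 16742 matched), and positions and stem-loops come from GENCODE M21 (GRCm38), not mm9. Rounded expected counts of a pair of libraries entered a conditional exact Poisson test (scipy 1.17.1), adjusted over all genes by the method of Benjamini and Hochberg, with the thresholds that the study names. Values under 0.01 FPKM were set to 0.01. Counts of 1 to 3 are given as counts. With 1 library per condition, edgeR's quasi-likelihood test and DESeq2 could not be used. Alternatives were TMM, median of ratios and upper quartile scaling, ratios of counts scaled by library totals alone, a pseudocount of 1 FPKM, a minimum of 10 counts, a false discovery rate of 0.05, a log2 ratio of 2 and edgeR's exact test (edgeR 4.0.16, R 4.3.3) at an assumed variation of 0.2. Rescaling FPKM to one sum was chosen after seeing the data. Deposited lengths were used only to describe Slc11a2.

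The 10 genes and the gene lists were chosen with earlier results of these data known. Named genes were the 10 members, a fixed set of relatives and partners, up to 3 genes per list that were called alike in both TR libraries with the largest mean log2 ratios, and the 2 genes nearest to a member. Not all of these are described. Tax1bp1, Slc48a1, Cd163 and Adgre1 and the genes called between TR9 and TR1 were named after their values were seen. The Poisson call and its intervals were tested on simulated Poisson counts for TR1 against control, without variation between animals. The other steps were not tested on simulated data. Scripts ran in Python 3.11.15 with pandas 2.3.3, numpy 2.4.6 and, for figures, matplotlib 3.10.9.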

Additional observations from a re-analysis of the deposited data

Results flagged for a closer look

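Differences between TR9 and TR1, called directly, were found for Slc40a1 among the 10 genes and for 12 other genes. The 12 were of the 69 other listed genes of the iron, NRF2 and BACH1 lists. By the same rule, 4.34% of all genes tested were higher in TR9 and 2.31% lower. The log2 ratio of TR9 to TR1 was 1.47 for Slc40a1. Of the genes of uptake it was -3.95 for Steap4, 1.15 for Exoc6, -2.06 for Lcn2 and 2.11 for Cd163. The export genes Heph, Cp and Abcg2 had 2.20, 4.20 and 4.29. For heme breakdown it was 1.92 for Blvrb, for iron-sulfur assembly 1.15 for Isca1 and for sensing -1.12 for Fbxl5. Of the NRF2 and BACH1 genes, Srxn1 had 3.69 and Me1 3.32. The counts behind the last value are small, with 4 in TR1 and 37 in TR9. Each compares 2 libraries without replicates.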

How the results depend on the processing

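Of 300 values of the 10 genes under 10 alternatives, 274 kept their direction and their side of the thresholds. Of the rest, 20 kept the direction but were no longer called, and 6, none of them called, changed sign. The minimum of 10 counts, the false discovery rate, the log2 threshold and edgeR's exact test leave the ratios themselves unchanged. Under these alternatives no value could change direction, and a false discovery rate of 0.05 can only add calls. With TMM, Ftl1 was at 0.003 in TR1 and at -9.5e-05 between TR9 and TR1, Ncoa4 at -0.007 between TR9 and TR1 and Slc25a37 at 0.061 in TR9, and Slc25a37 was also at 0.031 with the median of ratios and at 0.053 with the upper quartile. The median of the 10 genes between TR9 and TR1 was -0.004 with TMM. With a log2 ratio of at least 2, 0 of the 10 genes were higher and 2 lower in TR1, beside 4.21% and 6.96% of all genes, 0 higher and 3 lower in TR9, beside 4.53% and 5.69%, and 0 higher in TR9 than in TR1, beside 1.8%. With edgeR's exact test at an assumed coefficient of variation of 0.2, 0 were higher and 4 lower in TR1, beside 4.04% and 6.09% of all genes, 0 higher and 4 lower in TR9, beside 4.4% and 5.09%, and 0 higher in TR9 against TR1, beside 1.2%. After FPKM were rescaled to one sum, a choice made after seeing the data, 0 were higher in TR1, beside 6.52% of all genes, and Ncoa4 had a log2 ratio of 0.99. Fth1 was also not called in TR1 with the median of ratios and in TR9 with the upper quartile. The median of the 10 genes in TR1 was -1.18 with TMM and -1.66 after rescaling. Of all genes called, TMM put 1591 lower and 1694 higher in TR1 and 1503 lower and 1717 higher in TR9. Among the other 69 listed iron, NRF2 and BACH1 genes, edgeR's exact test called 7 higher and 9 lower in TR1, and 7 higher and 5 lower in TR9, where the lower calls no longer outnumbered the higher ones. No paired analysis was possible because each condition has 1 library, and for the same reason no library could be left out. Genes with few counts, such as Hamp, are limited by depth.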
